A study of Mus musculus with 11 samples.

Results

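The Trbv genes are the variable (V) segments of the T cell receptor beta locus, and their use was read in lungs of old mice from 3′ droplet libraries of single cells (10x Genomics). All 35 rows of the gene list whose symbol starts with Trbv were taken, of 31053 genes. T cells were barcodes with 1000 to 30000 UMIs (unique molecular identifiers, each counting 1 captured RNA molecule), at most 14% mitochondrial UMIs and 2 or more UMIs of Cd3d, Cd3e and Cd3g together. Of 81983 barcodes, 69267 passed the filter and 14758 were T cells. CD4 cells had a Cd4 UMI and none of Cd8a or Cd8b1 (3568 cells), and CD8 cells had a Cd8a or Cd8b1 UMI and none of Cd4 (6219 cells). Usage is the share of a library's Trbv UMIs that fell on 1 gene, within CD4 or CD8 cells.

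The study compared 4 genotypes at the p21 locus (gene Cdkn1a). They were WT (wild type, +/+, 1 library), p21Het (p21 heterozygotes, +/-, 3 libraries), p21mTert (+/mTert, 5 libraries) and p21mTertCD (+/mTertCD, 2 libraries). As background, in the p21mTert allele the mouse telomerase gene Tert is placed under control of the p21 promoter, CD stands for a catalytically dead telomerase, and all 3 non-wild-type groups keep 1 normal p21 allele. Mice were 18 months old by their age labels, except p21Het_1 at 19 and p21mTert_1 at 20 months, but the sample titles give 18 months for these as well. WT_1, p21Het_1 and p21mTert_1 came from an earlier deposit than the other 8 libraries, so for p21Het_1 and p21mTert_1 the labelled age and the deposit cannot be told apart. Nothing in the labels says that each library is a separate animal, so the p-values measure the spread between these libraries.

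A beta chain gene is assembled in the thymus by joining a V, a D and a J segment upstream of a constant segment, Trbc1 or Trbc2, and most mature alpha beta T cells express a single productive beta chain. The V segment encodes the parts of the chain that chiefly touch the MHC molecule, while the junction after its last cysteine forms the loop that meets the peptide. A cell and its clonal offspring carry the same rearrangement, so the V segment is a coarse mark of clonal origin, and CD4 and CD8 cells read MHC class II and class I respectively. In a 3′ library the V segment lies at the far end of the transcript from the captured poly(A) tail, so few molecules are read there.

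In GENCODE M21 (GRCm38) all 35 segments lie on chromosome 6. Of these, 22 are annotated as functional V genes and 13 as pseudogenes. Trbv31 lies downstream of the constant segments on the minus strand, at chr6:41557691-41558452, and the 6 segments printed here are on the plus strand. The 3′ ends of the segments on which the results turn are given 5′ to 3′ as annotated, with capitals from the codon of the last cysteine, where the germline part of the junction loop begins.
Trbv2 (chr6:41047340-41047995): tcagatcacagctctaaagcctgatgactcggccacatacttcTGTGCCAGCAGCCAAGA
Trbv3 (chr6:41048290-41048828): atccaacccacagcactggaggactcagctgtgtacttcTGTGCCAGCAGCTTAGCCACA
Trbv12-1 (chr6:41113550-41114067): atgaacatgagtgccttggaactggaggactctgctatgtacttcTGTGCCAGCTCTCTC
Trbv12-2 (chr6:41118851-41119364): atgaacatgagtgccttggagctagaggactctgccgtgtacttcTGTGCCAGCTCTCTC
Trbv16 (chr6:41151740-41152230): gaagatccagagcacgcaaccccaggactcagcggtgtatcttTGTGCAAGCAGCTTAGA
Trbv19 (chr6:41178375-41179048): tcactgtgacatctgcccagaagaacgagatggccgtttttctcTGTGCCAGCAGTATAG
Trbv2 and Trbv3 are neighbours in the genome, and the ends of Trbv12-1 and Trbv12-2 differ at 4 of their last 60 bases. Their spliced segments are identical at 88.3% of 385 aligned bases, so counts of this pair are uncertain where the counting could split reads between them. The same holds for Trbv13-2 and Trbv13-3, at 90.6%.

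The libraries held 42038434 to 85988955 UMIs and 724 to 2445 T cells each, and any 2 libraries shared 4 to 20 barcodes. Marker genes differed between the compartments on average, but those of CD8 cells were also high in CD4 cells of p21mTertCD_1 and p21mTert_5. Cd40lg and Tnfrsf4, a ligand and a costimulatory receptor of helper cells, had a UMI in 40.7% and 51.8% of CD4 cells on average over the 11 libraries, against 2.73% and 3.70% of CD8 cells. Nkg7 and Ccl5, of cytotoxic cells, had one in 90.2% and 75.9% of CD8 cells against 31.1% and 27.1% of CD4 cells. In p21mTertCD_1, however, Nkg7 had a UMI in 88.8% of CD4 cells, and the 7 CD8 T cell markers summed to 5840 CPM (UMIs per 1000000) there. They summed to 4773 in CD4 cells of p21mTert_5 and to 691 to 1992 in those of the other 9 libraries. Cd8a and Cd8b1 are among the 7 and are at 0 in CD4 cells by the rule that chose them. Markers of other cells were seen too. At least 1 of 5 NK cell genes (Ncr1, Klre1, Klra8, Klra4 and Gzma) had a UMI in 1.61% to 15.0% of CD4 and 14.9% to 60.9% of CD8 cells, most in CD8 cells of p21mTertCD_2, p21mTertCD_1 (57.2%) and p21mTert_2 (51.4%), while Ncr1 alone was seen in 0.338% of CD8 cells on average. At least 1 of 6 myeloid genes was seen in 68.0% to 97.7% of cells in both compartments, Sftpc of the epithelium in 90.6% and 91.2%, and Cd79a of B cells in 4.61% and 4.70% on average. The part of these in Trbv usage was not tested.

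Trbv UMIs were nearly confined to T cells. They held 98.9% of the 2917 Trbv UMIs of all cells that passed the filter. A Trbv UMI was found in 686 of 3568 CD4 cells (19.2%) and 1031 of 6219 CD8 cells (16.6%). It was found in 1 of 16263 B cells (0.00615%), 4 of 6784 endothelial cells (0.0590%) and 9 of 15802 macrophages (0.0570%). These had no UMI of Cd3d, Cd3e or Cd3g, and 2 or more of Cd79a and Cd79b, of Cldn5, or of C1qa, C1qb and Chil3. The rule leaves out barcodes of these types with Cd3 RNA, so the shares may be low by choice. Median depths of the B cells, endothelial cells and macrophages were 4271, 3825 and 9658 UMIs, against 5742 and 7973 in CD4 and CD8 cells.

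CD4 cells gave 872 Trbv UMIs and CD8 cells 1221, from 20 to 254 and from 34 to 329 per library, so that a share in a single library carries a wide counting error. Of the 35 rows, 26 had a UMI in CD4 or CD8 cells and 9 had none. The 22 functional genes were all detected and held 98.9% of the UMIs, while the 13 pseudogenes held 23 UMIs, 20 of them on Trbv24. The 14 genes with at least 2% of the UMIs held 90.5% of them. These were Trbv1, Trbv2, Trbv3, Trbv12-1, Trbv12-2, Trbv13-1, Trbv13-2, Trbv13-3, Trbv15, Trbv16, Trbv19, Trbv20, Trbv26 and Trbv29. The other 12 detected rows held 1 to 39 UMIs each, with Trbv14 and Trbv31 at 39.

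**Figure D1:**
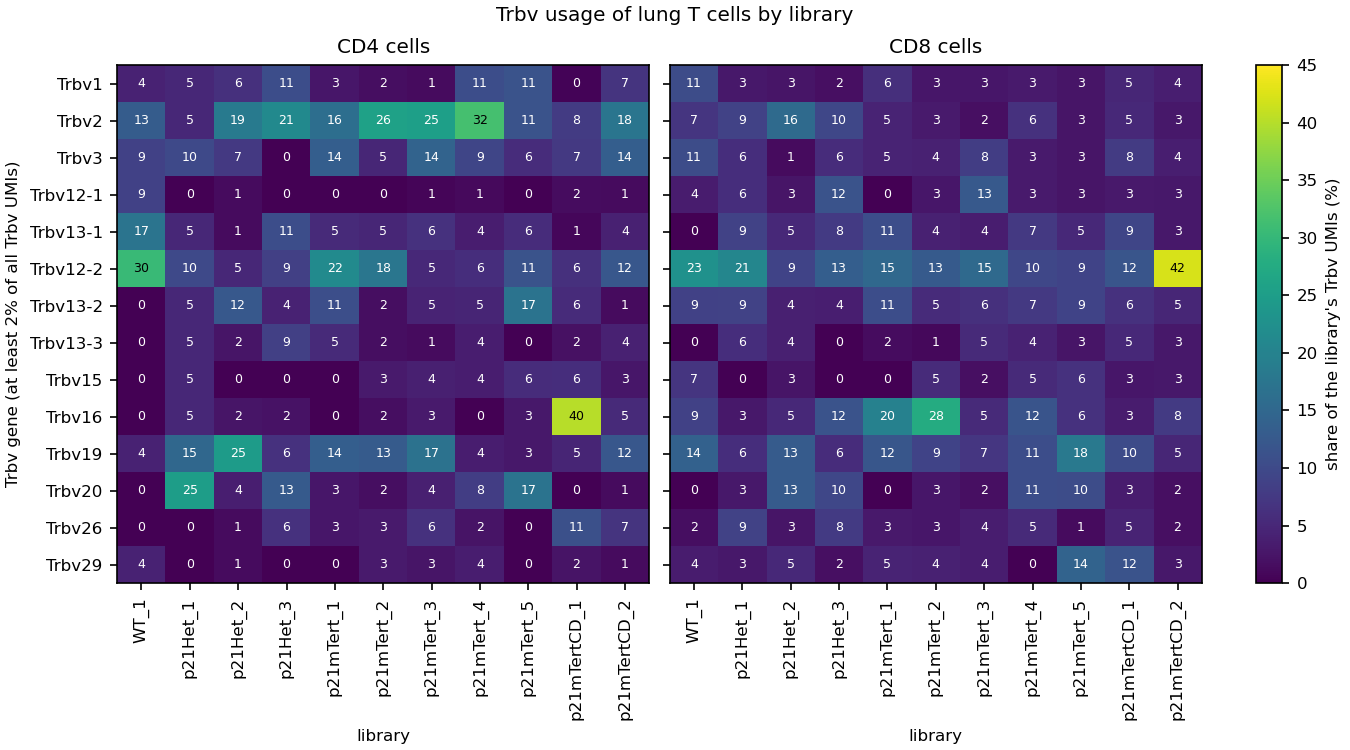
Share of each library's Trbv UMIs (percent, colour and number) for the 14 genes with at least 2% of all Trbv UMIs, in CD4 cells (left) and CD8 cells (right) of the 11 libraries. Trbv2 is high along most of the CD4 panel, and Trbv16 in CD4 cells of p21mTertCD_1 (40.2%) and Trbv12-2 in CD8 cells of p21mTertCD_2 (42.3%) stand out as single squares.

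The gene with the largest share differed between libraries. In CD4 cells Trbv2 led in 5 of 11 libraries and Trbv12-2 in 2, while Trbv16, Trbv19 and Trbv20 led in 1 each. In p21mTert_5 Trbv13-2 and Trbv20 tied at 6 of 35 UMIs. In CD8 cells Trbv12-2 led in 6, Trbv16 in 3, and Trbv2 and Trbv19 in 1 each. Some leads were narrow and changed when cells with exactly 1 Trbv gene were counted. Trbv19 then led or tied in CD4 cells of p21mTert_3. In CD8 cells Trbv19 then led or tied in p21Het_2, Trbv12-1 in p21mTert_3 and Trbv12-2 in p21mTert_4. The heat map of usage by library shows the leads by UMIs beside the lower genes.

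CD4 cells used Trbv2 more than CD8 cells of the same libraries, and Trbv3 leaned the same way less firmly. Trbv2 held 5.00% at lowest, 17.6% at the median and 31.8% at highest of a library's Trbv UMIs in CD4 cells, a mean of 17.6% ± 8.10 (SD, n = 11). In CD8 cells it held 1.80%, 5.17% and 15.6%, a mean of 6.15% ± 4.04. Trbv2 was thus higher in CD4 cells in 10 of 11 libraries. The exception was p21Het_1, where the values were 1 of 20 UMIs and 3 of 34. The ranges of the 2 compartments overlapped, but within libraries the order was nearly always the same. By deposit, Trbv2 was higher in CD4 cells in 8 of 8 later libraries (19.9% against 5.90%) and in 2 of 3 earlier ones (11.4% against 6.80%).

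Trbv3, the next segment downstream, held 0% at lowest, 8.70% at the median and 14.3% at highest in CD4 cells, a mean of 8.62% ± 4.27 (SD, n = 11). In CD8 cells it held 1.30%, 4.55% and 10.5%, a mean of 5.25% ± 2.73. It was higher in CD4 cells in 8 of 11 libraries, and in CD8 cells in WT_1, p21Het_3 and p21mTertCD_1.

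The counts were tested as sums per library and compartment with edgeR's quasi-likelihood test, paired by library, with Benjamini-Hochberg adjustment over all genes tested and calls at an adjusted p under 0.05. With edgeR's low-count filter no Trbv row was tested and 0 were called, with 36.7% of all 9664 genes called, and DESeq2 on the same genes likewise tested none. Without the filter 26 Trbv rows were tested, 4 had an unadjusted p under 0.05 and 2 were called, both lower in CD8 cells, where 18.2% of all 20623 genes were called and 8.73% as lower. On this scale, of UMIs relative to all UMIs of the cells, the log2 fold change of Trbv2 from CD4 to CD8 cells was -2.09 (SE 0.353, with an adjusted p of 3.07e-05, edgeR). That of Trbv3 was -1.16 (SE 0.396, adjusted p = 0.0382, edgeR). The Trbv2 call was made under all 18 alternatives that tested it, at -2.31 to -1.51. The Trbv3 call was lost in 9 of 17, with the highest adjusted p, 0.222 (edgeR), in cells with exactly 1 Trbv gene, and 0.145 when p21mTertCD_2 was left out. Scaled to Trbv UMIs alone, the change of Trbv2 was -1.65 (adjusted p = 3.44e-05, edgeR) and that of Trbv3 -0.72 (adjusted p = 0.212, edgeR).

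**Figure D2:**
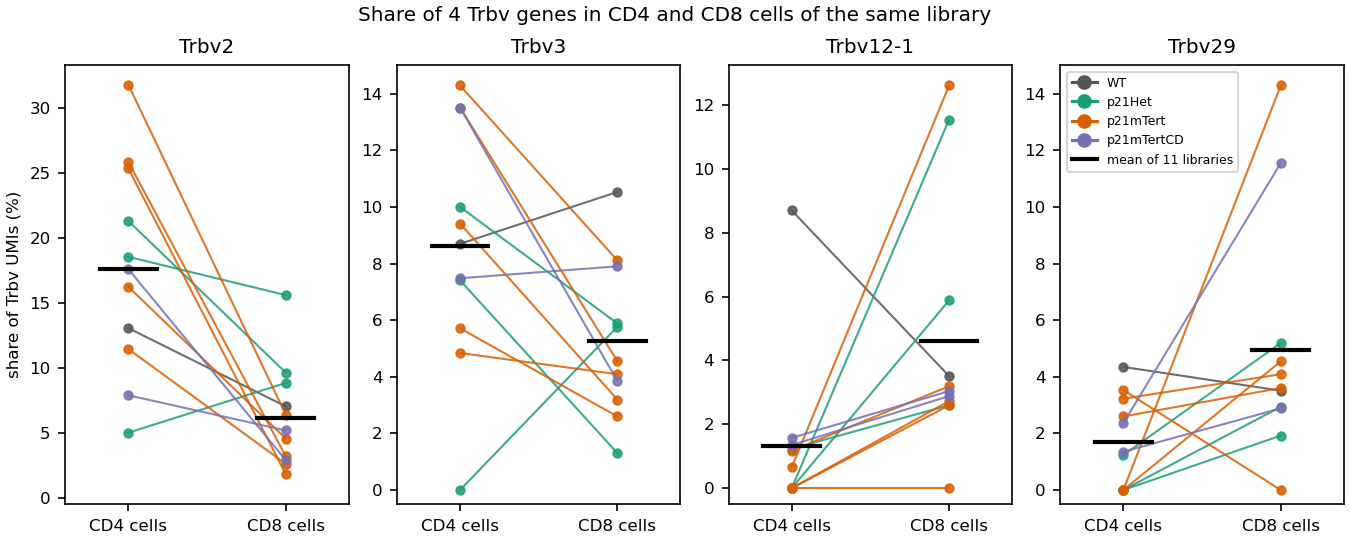
Share of Trbv UMIs (percent) of Trbv2, Trbv3, Trbv12-1 and Trbv29 in CD4 and CD8 cells, with a line joining the 2 values of each library, coloured by group, and a black bar at the mean of the 11 libraries. The Trbv2 lines fall in 10 of 11 libraries, from a mean of 17.6% to 6.15%, while the Trbv12-1 and Trbv29 lines rise in 9 of 11.

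Other genes leaned towards CD8 cells without passing that test. Trbv12-1 held 0% at lowest, 0.649% at the median and 8.70% at highest of Trbv UMIs in CD4 cells (mean 1.33% ± 2.52, SD, n = 11). In CD8 cells it held 0%, 3.04% and 12.6% (mean 4.60% ± 3.94). Its value was higher in CD8 cells in 9 of 11 libraries. WT_1 was the exception, and p21mTert_1 had none in either. Its log2 difference in the test without the low-count filter was 1.44 (SE 0.649, adjusted p = 0.147, edgeR). Scaled to Trbv UMIs alone it was called, at 1.84 (adjusted p = 0.0306, edgeR), in a fit that called 29.8% of all genes.

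Trbv16 was higher in CD8 cells in most libraries, but not in the pooled counts. Its mean share was 5.72% ± 11.6 in CD4 and 10.1% ± 7.56 in CD8 cells (SD, n = 11), with the CD8 value higher in 9 of 11 libraries. Pooled over libraries the order was the other way, at 13.4% and 10.7%. Of its 117 UMIs in CD4 cells, 102 came from p21mTertCD_1, and the other 10 libraries averaged 2.27% there. The log2 difference of Trbv16 from CD4 to CD8 cells without the low-count filter was 0.51 (SE 0.573, adjusted p = 0.699, edgeR). It was called when scaled to Trbv UMIs alone (1.21, adjusted p = 0.0264, edgeR) and without p21mTertCD_1 (1.49, adjusted p = 0.0419, edgeR).

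Trbv29 held 0%, 1.35% and 4.35% in CD4 cells and 0%, 3.604% and 14.3% in CD8 cells, in the order lowest, median and highest, and was higher in CD8 cells in 9 of 11 libraries. The means were 1.69% ± 1.61 and 4.96% ± 4.21 (SD, n = 11). In CD8 cells p21mTert_5 at 14.3% and p21mTertCD_1 at 11.6% lay above all other libraries. Trbv31, the segment of opposite orientation, leaned towards CD4 cells at 2.86% ± 3.02 against 1.04% ± 0.998 (log2 difference -1.67, SE 0.690, adjusted p = 0.104, edgeR without the low-count filter).

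The other common genes had means that lay within 1 SD of each other. Trbv19 averaged 10.6% ± 6.89 in CD4 and 10.1% ± 4.09 in CD8 cells (SD, n = 11), and Trbv12-2 averaged 12.2% ± 8.05 and 16.5% ± 9.64. Trbv13-1 averaged 5.92% and 5.91%, Trbv13-2 6.12% and 6.86%, and Trbv13-3 3.08% and 2.96%. Trbv1 averaged 5.54% and 4.00%, Trbv15 2.73% and 3.12%, Trbv20 6.95% and 5.12%, and Trbv26 3.65% and 3.94%. As families, the Trbv12 segments held 13.5% ± 9.84 of CD4 and 21.1% ± 10.3 of CD8 Trbv UMIs, and the Trbv13 segments 15.1% ± 5.70 and 15.7% ± 5.28.

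The rest of the receptor was compared in the same fit with the low-count filter. Of 23 constant, joining and diversity rows, 7 were tested, 3 were higher in CD8 cells and 1 was lower, where 36.7% of all genes tested were called, with a median log2 difference of -0.08 against -0.0013 over all genes. Trac, the alpha constant segment, was lower in CD8 cells (-0.61, SE 0.0808, adjusted p = 1.82e-05, edgeR). Trbc1 and Trbc2 were at -0.27 and -0.16 and did not pass (adjusted p = 0.0574 and 0.165, edgeR). The gamma delta segments Trdc, Tcrg-C2 and Tcrg-C4 were higher in CD8 cells, by 1.37, 1.98 and 2.24, while Tcrg-C1 was at -0.085 (adjusted p = 0.874, edgeR). All 16 joining and diversity rows had 0 UMIs. Of 12 signalling genes downstream of the receptor, 4 were higher and 7 lower in CD8 cells (median -0.44, against the same 36.7% of all genes called), with the inhibitory receptor Cd5 at -1.31 and the zeta chain Cd247 at -0.63. In the comparisons between groups no gene of either list was called. Of all genes tested there, 0% to 0.0364% were called, so the absence of calls is not particular to these lists.

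The beta constant segments were read at far higher counts, but many cells had UMIs of both. Of 87 CD4 cells with a Trbv16 UMI in p21mTertCD_1, 59 had a Trbc1 UMI and 86 a Trbc2 UMI. The Trbc1 share thus does not tell which segment the chain of a cell uses. Trbc1 took 37.9% ± 2.31 of Trbc1 and Trbc2 UMIs in CD4 cells and 36.2% ± 4.12 in CD8 cells (SD, n = 11). CD4 libraries ranged from 35.5% to 42.9% and CD8 libraries from 28.7% to 41.2%, with the lowest CD8 value in p21mTertCD_2.

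Between genotypes, Trbv16 in CD4 cells set 1 library apart. In CD4 cells it held 5.00%, 2.47% and 2.13% of Trbv UMIs in p21Het replicates 1 to 3. It held 0%, 1.61%, 3.25%, 0% and 2.86% in p21mTert replicates 1 to 5, and 40.2% and 5.41% in p21mTertCD replicates 1 and 2. In WT_1 it had 0 of 23 UMIs, which allows a share of up to 13.0%. The p21mTertCD_1 value lay far above all others. That of p21mTertCD_2 (4 of 74 UMIs) was close to that of p21Het_1 (1 of 20) and below the 8.11% that 0 of 37 UMIs allow in p21mTert_1. It lay above all p21mTert values as measured, the highest at 3.25%, and p21mTert_4 had 0 of 85 UMIs. In all, 102 of the 117 Trbv16 UMIs of CD4 cells came from p21mTertCD_1 alone (102 of its 254 Trbv UMIs). The other 10 libraries averaged 2.27% ± 1.96 (SD, n = 10). CD4 cells of p21mTertCD_1 were also those with Nkg7 in 88.8% and the highest sum of CD8 T cell markers, whose part in this result was not tested.

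With the low-count filter 3 Trbv rows (Trbv2, Trbv3 and Trbv19) were tested between groups in CD4 cells. None was called by edgeR in any of the 3 comparisons (0% of 10206 genes), none had an unadjusted p under 0.05, and DESeq2 called none. The smallest p belonged to Trbv3 for p21mTert minus p21Het (1.48, SE 0.781, adjusted p = 0.716, edgeR) and p21mTertCD minus p21Het (1.57, SE 0.884, adjusted p = 0.616, edgeR). It belonged to Trbv2 for p21mTert minus p21mTertCD (0.92, SE 0.666, adjusted p = 0.799, edgeR). These values moved with single libraries. Without the filter, those of Trbv3 ran from 0.93 (without p21Het_3) to 2.48 (without p21Het_2) and from 1.04 to 2.60 (without the same libraries), and that of Trbv2 was 0.42 without p21mTertCD_1. In cells with exactly 1 Trbv gene, those of Trbv3 were 0.63 and 0.0043. Without the filter 23 rows were tested and Trbv16 was lower in p21mTert than in p21mTertCD (log2 difference -3.78, SE 0.755, adjusted p = 0.0219, edgeR). Of all 18891 genes 0.249% were called and 0.18% as lower. Without p21mTertCD_1 the value was -1.48 (adjusted p = 0.979, edgeR), and DESeq2 without the filter did not call it (-3.82, adjusted p = 0.445). The call was made in 17 of 19 alternatives and lost in these, and within the later deposit the value was -3.49 (adjusted p = 0.000144, edgeR, with 1.79% of genes called). p21mTertCD minus p21Het gave 3.84 (SE 0.905, adjusted p = 0.0573, edgeR without the filter, where 0.291% of genes were called), or 1.52 without p21mTertCD_1 (adjusted p = 0.931, edgeR). With a term for the deposit it was called (3.58, adjusted p = 0.0232, edgeR, with 1.31% of genes called), as in the later deposit alone (3.91, adjusted p = 0.00245, edgeR, with 1.59% of genes called). The comparison p21mTert minus p21Het called no Trbv row (0.159% of genes called).

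**Figure D3:**
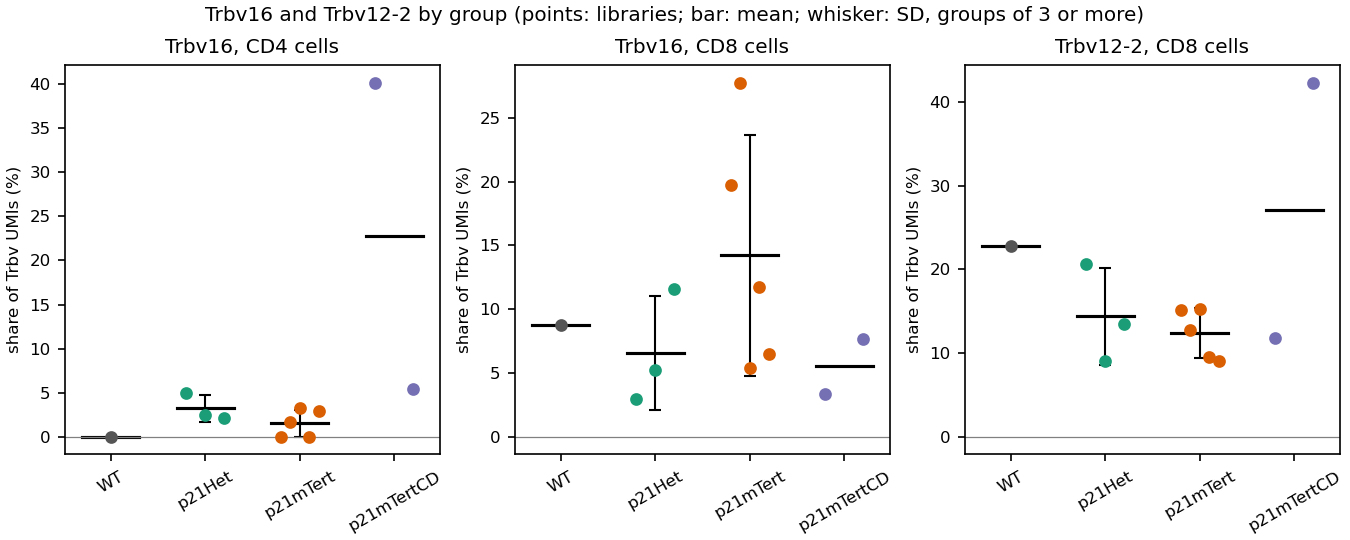
Share of Trbv UMIs (percent) of Trbv16 in CD4 cells, Trbv16 in CD8 cells and Trbv12-2 in CD8 cells by group, with 1 point per library, a bar at the group mean and whiskers of 1 SD for groups of 3 or more. In the left and right panels a single p21mTertCD library (40.2% and 42.3%) lies far from the other p21mTertCD library (5.41% and 11.9%).

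In CD8 cells the same gene was unevenly used in another group. Trbv16 held 2.94%, 5.19% and 11.5% of Trbv UMIs in p21Het replicates 1 to 3. It held 19.7%, 27.7%, 5.41%, 11.7% and 6.49% in p21mTert replicates 1 to 5, 3.34% and 7.69% in p21mTertCD, and 8.77% in WT_1. The p21mTert mean was the highest, with values that overlapped those of every other group, and p21mTert_2 held 61 of the 131 Trbv16 UMIs of CD8 cells. Its log2 difference was 1.72 for p21mTert minus p21Het (SE 0.721, adjusted p = 0.998, edgeR) and 1.82 for p21mTert minus p21mTertCD (SE 0.738, adjusted p = 0.398, edgeR). Neither passed, and without p21mTert_2 the values were 0.97 and 1.07. The second was called in 1 alternative, cells with exactly 1 Trbv gene without the filter (adjusted p = 0.0219, edgeR, with 2.02% of genes called).

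Trbv12-2 in CD8 cells held 20.6%, 9.09% and 13.5% in p21Het and 15.2%, 12.7%, 15.3%, 9.57% and 9.09% in p21mTert, in order of replicate. It held 11.9% and 42.3% in p21mTertCD and 22.8% in WT_1. All libraries but p21mTertCD_2 lay at 9.09% to 22.8%, and that library had 44 of 104 UMIs on this gene. p21mTertCD_2 had few Trbv UMIs for its depth, 104 of 10115229 UMIs of CD8 cells, against 329 of 8174458 in p21mTertCD_1. Its high share thus need not mean more Trbv12-2 RNA. Relative to all UMIs, the difference p21mTertCD minus p21Het was 1.03 (SE 0.449, adjusted p = 0.347, edgeR). It stayed at 0.98 to 1.19 with any 1 library left out. In all, 5 Trbv rows were tested in CD8 cells with the filter and none was called between groups by edgeR or DESeq2, with an unadjusted p under 0.05 for 1 row in each comparison. The share of all 10996 genes called was 0% for p21mTert minus p21Het, 0.0273% for p21mTert minus p21mTertCD and 0.0364% for p21mTertCD minus p21Het. Without the filter edgeR also called none of 26 Trbv rows, where the shares of all 19508 genes called were 0.0205%, 0.456% and 0.682%.

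Trbv2 was then set out by genotype. In CD4 cells it held 5.00%, 18.5% and 21.3% in p21Het, 16.2%, 25.8%, 25.3%, 31.8% and 11.4% in p21mTert, 7.87% and 17.6% in p21mTertCD and 13.0% in WT_1. In CD8 cells it held 8.82%, 15.6% and 9.62% in p21Het and 4.55%, 3.18%, 1.80%, 6.38% and 2.60% in p21mTert. It held 5.17% and 2.88% in p21mTertCD replicates 1 and 2, inside the p21mTert range, and 7.02% in WT_1. The CD8 values of p21Het did not overlap those of the other groups, but in p21Het and p21mTert they rest on 2 to 12 UMIs each. The CD8 difference p21mTert minus p21Het did not pass without the low-count filter (-1.16, SE 0.675, adjusted p = 0.964, edgeR). The drop from CD4 to CD8 cells was 3.59 points of share in p21Het (SD 7.77, n = 3), 18.4 in p21mTert (SD 7.58, n = 5) and 8.70 in p21mTertCD (n = 2).

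Whether the step from CD4 to CD8 cells differed between genotypes was tested as an interaction over both compartments. With the filter 11 Trbv rows were tested and none was called by edgeR or DESeq2, as was none of all 11507 genes by edgeR (0%). An unadjusted p under 0.05 was reached by 1 row in each of the 3 contrasts. For Trbv2 the difference of differences was -2.27 for p21mTert minus p21Het (SE 0.881, adjusted p = 0.861, edgeR), and -1.17 in cells with exactly 1 Trbv gene. For Trbv16 it was 4.99 for p21mTert minus p21mTertCD (SE 1.08, adjusted p = 0.627) and -3.55 for p21mTertCD minus p21Het (SE 1.32, adjusted p = 0.881), both by edgeR. Without p21mTertCD_1 and without the low-count filter, the latter was -1.97. Without the filter Trbv16 was called for p21mTert minus p21mTertCD (5.00, SE 0.853, adjusted p = 6.07e-05, edgeR), but not by DESeq2 (adjusted p = 1). Of all 20459 genes 0.44% were called in that contrast and 0.288% as higher, against 0.621% for p21mTert minus p21Het and 0.572% for p21mTertCD minus p21Het, where no Trbv row was called. With p21mTertCD_1 left out the value was 3.43 (adjusted p = 0.436, edgeR without the filter) and it was not called. In its CD4 and CD8 cells Trbv16 held 40.2% and 3.34%, and in p21mTert_2 1.61% and 27.7%, so these libraries ran opposite ways.

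The cells behind the largest shares were then described. These libraries and the other genes named for them were chosen after their values were seen, so the counts are given without a test. In p21mTertCD_1, 87 of 206 CD4 cells with a Trbv UMI had Trbv16, so the share was spread over many cells. In the same library Trbv16 held 21 of 50 Trbv UMIs (42.0%) in cells with both Cd4 and Cd8 UMIs, 8 of 59 (13.6%) in cells with neither and 11 of 329 (3.34%) in CD8 cells. Trbv26 was second in its CD4 cells, with 28 of 254 UMIs in 23 cells.

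The Trbv16 cells of this library were set beside its 119 CD4 cells with another Trbv gene. The cytokine gene Csf2 had a UMI in 32 of 87 Trbv16 cells and 10 of 119 others, the activation receptors Tnfrsf9 and Il2ra in 29 and 37 against 18 and 26, and the inhibitory receptor Pdcd1 in 73 against 69. Gzmk, a granzyme of effector-memory cells, was seen in 2 against 47, its regulator Eomes in 3 against 41, and Klrg1 in 0 against 22. Median depths were 6802 and 6722 UMIs. Cells without a Trbv UMI (628) lay between these for each of the named genes, such as Csf2 in 18.0% of them against 36.8% and 8.40%. Not all cytotoxic genes followed Gzmk. Ccl5 did, in 32.2% of Trbv16 cells against 58.8% of those with another Trbv gene, but Nkg7 was seen in 98.9% against 86.6%. Gzmb was seen in 33.3% against 38.7%, and Klre1 in 12.6% of both. Of the alpha chain, 17 of the 87 Trbv16 cells had a Trav UMI, spread over 15 Trav genes with at most 2 cells each. Trbc1 use was 38.2% in Trbv16 cells and 38.7% in the others.

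**Figure D4:**
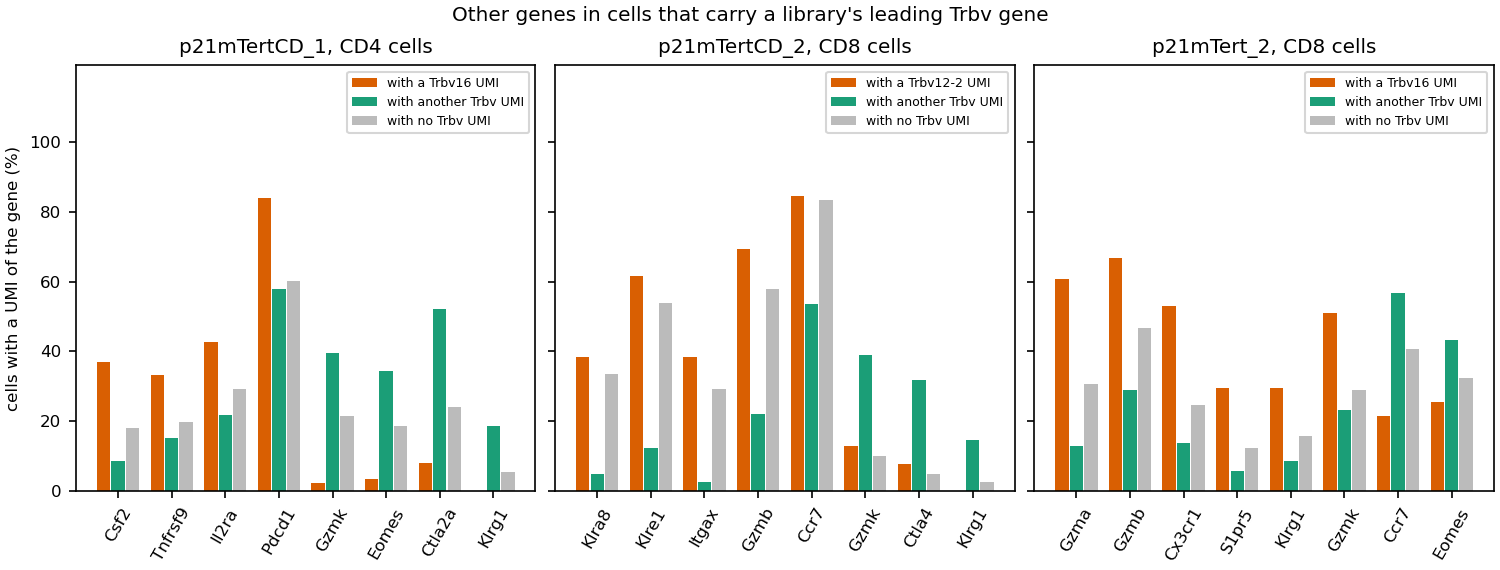
Percent of cells with a UMI of 8 other genes in 3 libraries, for cells with the leading Trbv gene (orange), cells with another Trbv gene (green) and cells with no Trbv UMI (grey). In CD4 cells of p21mTertCD_1 the orange bar is high for Csf2 (36.8%) and low for Gzmk (2 of 87 cells), and in CD8 cells of p21mTertCD_2 the orange and grey bars lie close together.

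In p21mTertCD_2, 39 of 80 CD8 cells with a Trbv UMI had Trbv12-2. The NK receptor gene Klra8 was seen in 15 of these 39 and 2 of the 41 with another Trbv gene, Klre1 in 24 and 5, the integrin gene Itgax in 15 and 1, and Gzmb in 27 and 9. Not all genes followed, and a marker of other cells differed too. Gzmk was seen in 5 and 16, Gzma, of the NK list as well, in 1 and 2 (8.68 against 98.1 CPM), and the myeloid gene S100a8 in 8 and 3 (1709 against 8.66 CPM). Median depths were 11975 and 8205 UMIs, so the Trbv12-2 cells were also the deeper ones. Trbc1 took 23.8% of beta constant UMIs in Trbv12-2 cells and 48.0% in the others. This library also had the lowest share of CD8 cells with a Trbv UMI in the series, 80 of 882 (9.07%). The 802 CD8 cells without one had Klra8 in 33.5%, Klre1 in 53.9% and Itgax in 29.1%. The alpha segment Trav8d-1 was seen in 36 CD8 cells of the library, none with a Trbv UMI, and Klra8, Klre1 and Itgax were found in 17, 25 and 14 of these. The 5 NK cell genes of the marker list summed to 292.7 CPM in CD8 cells of this library and to 970.3 in p21mTertCD_1, with no or 1 gene at 0. They summed to 95.2 to 121 in p21Het, 98.6 to 866 in p21mTert and 143 in WT_1, and their part in the Trbv12-2 share was not tested.

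In p21mTert_2, 51 of 190 CD8 cells with a Trbv UMI had Trbv16. Of cytotoxic and effector genes, Gzma was seen in 31 of these against 18 of the 139 others, Gzmb in 34 against 40, the chemokine receptor Cx3cr1 in 27 against 19 and S1pr5 in 15 against 8. The chemokine receptor gene Ccr7 was seen in 11 against 79, and Eomes in 13 against 60. Trbc1 use was 53.3% against 30.2%. Trbv16 cells were the shallower here, with a median of 4998 against 8606 UMIs. In p21mTertCD_1, Trbv29 held 38 of 329 CD8 Trbv UMIs (11.6%) in 34 cells.

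Evenness of usage was summarised per library by the effective number of Trbv genes, the inverse of the summed squared UMI shares, which equals the number of genes if all are used alike. It was 7.67 ± 1.41 in CD4 and 10.5 ± 2.70 in CD8 cells (SD, n = 11), and higher in CD8 cells in 10 of 11 libraries. In CD4 cells it ran from 5.01 in p21mTertCD_1 to 10.2 in p21mTertCD_2, and in CD8 cells from 4.98 in p21mTertCD_2 to 13.6 in p21mTertCD_1. The 2 p21mTertCD libraries thus gave the lowest and highest values of both compartments, in opposite order. By group the CD4 means were 8.19 ± 0.674 in p21Het (n = 3) and 7.71 ± 0.736 in p21mTert (n = 5), and the CD8 means 11.3 ± 0.483 and 10.9 ± 2.44. WT_1 gave 6.08 and 8.18. The number of Trbv UMIs was lower in CD4 than in CD8 cells in all libraries but p21Het_2 and p21mTert_3, and its part in the order of the compartments was not tested.

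**Figure D5:**
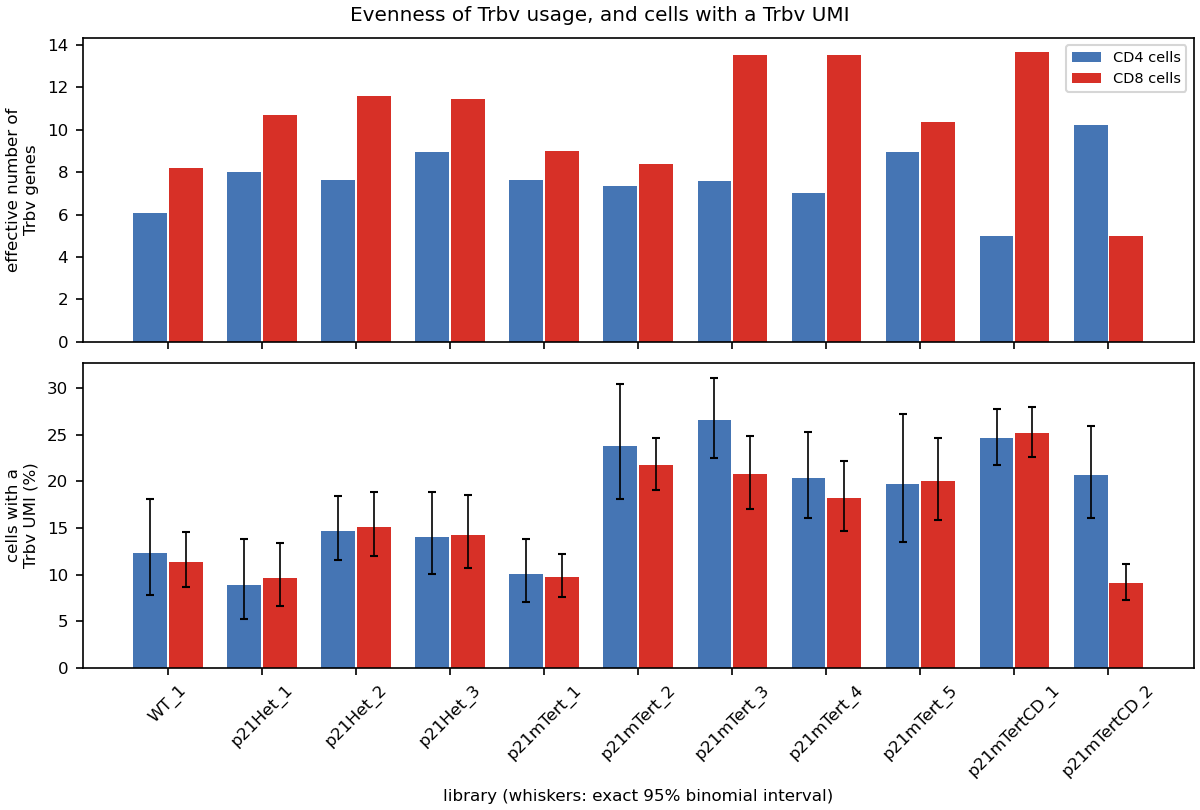
Effective number of Trbv genes (upper panel) and percent of cells with a Trbv UMI (lower panel, whiskers are exact 95% binomial intervals) in CD4 and CD8 cells of each library. The bars of p21mTertCD_1 and p21mTertCD_2 run opposite ways in the upper panel (5.01 and 13.6 against 10.2 and 4.98).

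The share of cells with any Trbv UMI was low in the earlier deposit. In its 3 libraries it was 8.90% to 12.3% in CD4 cells and 9.60% to 11.4% in CD8 cells. In the later p21Het libraries it was 14.7% and 14.0% in CD4 and 15.2% and 14.3% in CD8 cells, in order of replicate. The later p21mTert libraries gave 23.9%, 26.7%, 20.4% and 19.7% in CD4 and 21.7%, 20.8%, 18.2% and 20.0% in CD8 cells. All 4 later p21mTert libraries lay above both later p21Het libraries in each compartment. With each cell thinned to 1000 UMIs the CD4 values were 3.58% and 2.59% in later p21Het and 4.66%, 5.47%, 3.62% and 3.14% in later p21mTert, which overlap. The thinned CD8 values, 2.61% and 1.72% against 3.71%, 3.35%, 2.56% and 2.98%, overlap as well. p21mTertCD_1 gave 24.7% and 25.2%, and p21mTertCD_2 20.7% and 9.07%. Median depth was 4824 to 6791 UMIs in CD4 and 6304 to 11336 in CD8 cells, and its part in these shares beyond the thinned values was not tested. Intervals cover counting error only.

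Subsets were read within the compartments. Foxp3, the master regulator of regulatory T cells, marked 379 CD4 cells, of which 18.5% had a Trbv UMI. Trbv2 held 23 of their 93 Trbv UMIs (24.7%) against 16.8% in Foxp3-negative CD4 cells, and Trbv16 held 2.15% against 14.8%. The UMIs were pooled over libraries here, and p21mTertCD_1 had the fewest Foxp3-positive cells by share (2.04%), so it weighs mainly on the second value of both genes. It gave 8 of the 93 and 246 of the 779 Trbv UMIs, and in its CD4 cells Trbv2 held 7.87% and Trbv16 40.2%. No Trbv row was called between the subsets. The low-count filter left none to test (16.8% of 6135 genes called by edgeR), and without it 0 of 23 were called, 1 had an unadjusted p under 0.05, and 7.73% of genes were called. The row of smallest p was Trbv1, at -2.31 (SE 1.16, adjusted p = 0.298, edgeR).

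Pooled over libraries, Gzmk-positive CD8 cells (1761) had a Trbv UMI in 23.2% and Gzmk-negative cells (4458) in 14.0%. Trbv12-2 held 12.5% of Trbv UMIs in the first and 17.4% in the second, and Trbv16 11.5% and 10.2%. Libraries entered these pooled values unequally. p21mTertCD_1 gave 768 of the Gzmk-positive cells and 267 of their 503 Trbv UMIs, and p21mTertCD_2, where Trbv12-2 led, gave 780 of the Gzmk-negative cells. No Trbv row was tested with the filter (24.9% of 8615 genes called by edgeR), and without it 0 of 26 were called with 2 at an unadjusted p under 0.05 (11.7% of genes called). Trbv16 came closest, at 1.34 relative to all UMIs (SE 0.479, adjusted p = 0.0598, edgeR). Of the other receptor genes 5 constant segments were higher in Gzmk-positive cells, among them Trbc1, Trbc2 and Trac, and 10 of 12 signalling genes were higher and 1 lower, beside 24.9% of all genes called. In Foxp3-positive CD4 cells 7 of the 12 signalling genes were lower and none higher, and no constant segment was called, beside 16.8% of all genes.

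Cells with a Zbtb16 UMI and none of Cd8 or the gamma delta genes (345), among which NKT cells would fall, gave 60 Trbv UMIs. Trbv12-2 held 11 of them (18.3%), against 8.71% in Zbtb16-negative CD4 cells and 12.7% in double-negative cells without a gamma delta UMI. Trbv13-2 held 8 (13.3%) against 5.76% and 8.86%, and Trbv13-3 held 6 (10%) against 2.71% and 6.09%. Trbv13-1 went the other way, with 1 (1.67%) against 4.24% and 6.65%. Trbv2 held 2 (3.33%) against 18.1% and 12.5%. The set holds cells with and without Cd4, and its 60 UMIs, pooled over libraries, give wide counting errors. Trbv13-2 is the segment most often paired with the invariant alpha chain of mouse NKT cells. Cells with 2 or more Trdc UMIs and no Cd4 or Cd8 UMI (715), which are gamma delta cells by that marker, had a Trbv UMI in 3.22% (23 cells, 95% interval 2.05 to 4.79%), against 12.8% of double-negative cells without a gamma delta UMI. Of their 26 Trbv UMIs, 5 were on the pseudogene Trbv24.

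Cells with both Cd4 and Cd8 UMIs (456) had a Trbv UMI in 30.7%. Among them 182 had a UMI of a thymic marker gene and 37.9% of these had a Trbv UMI, against 25.9% of the 274 others. Thymic-marker cells made up 78.9% of such double-positive cells in p21Het_2. The share was also high in p21mTert_5 (88.2%), p21Het_3 (67.6%) and p21mTert_2 (60.9%), and low in p21mTert_1 (5.88%). Of CD8 cells, thymic-marker cells made up 9.05% in p21Het_2, against at most 2.43% elsewhere. They held 9 of the 77 CD8 Trbv UMIs of p21Het_2, and leaving them out moved the Trbv2 difference between CD8 and CD4 cells to -2.10.

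Most cells with a Trbv UMI showed a single V gene, but most held only 1 Trbv UMI and could not show a second gene. There were 872 Trbv UMIs in 686 such CD4 cells and 1221 in 1031 such CD8 cells. The shares that follow therefore do not measure how often a cell expresses a single V gene. Of the cells with a Trbv UMI, 37 in CD4 (5.39%) and 42 in CD8 (4.07%) had 2 or more genes, in 55 different pairs. The most frequent pair was Trbv12-2 with Trbv13-2, in 12 cells, and these segments lie next to each other in the genome. Counting each gene once in cells with exactly 1 Trbv gene gave a Trbv2 difference between CD8 and CD4 cells of -1.51 (SE 0.304, adjusted p = 1.98e-05, edgeR without the low-count filter). Of the 8 gene and compartment pairs that passed the low-count filter, 7 varied more between libraries than the trend for genes of their abundance. Trbv16 in CD4 cells did not pass the filter and is not among them. The share of all genes above the trend was not computed, so this count is not a trait of Trbv genes. The biological coefficient of variation was 0.496 for Trbv2 in CD4 cells against a trend of 0.356, 0.826 for Trbv29 in CD8 cells against 0.421, and 0.542 for Trbv16 in CD8 cells against 0.399. Trbv12-2 in CD8 cells was below its trend, at 0.275 against 0.376.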

How the data were processed

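Lung cell suspensions of 11 mouse libraries were profiled with 10x Genomics 3′ chemistry. The deposited matrices hold raw UMI counts per gene and barcode, made by the authors with Cell Ranger against mm10, per the submitters' processing notes; its version is not stated without conflict in the sources used here. UMI sums per library over CD4 cells, CD8 cells or their Foxp3 and Gzmk subsets were tested with edgeR 4.0.16 (R 4.3.3, filterByExpr, TMM, quasi-likelihood), with a term for the library where both sums came from it, and Benjamini-Hochberg adjustment over all genes tested. p21Het, p21mTert and p21mTertCD shared 1 estimate of the spread, and WT, with 1 library, is given as values. The low-count filter removed most or all Trbv rows, so the alternative without it is printed beside it. DESeq2 1.42.0, other size factors, the summed Trbv UMIs as library size, Scrublet scores (scanpy 1.11.5, the top 0.8% per 1000 barcodes left out, otherwise doublets stayed in), 3 or more Cd3 UMIs, cells with exactly 1 Trbv gene, the deposit, the replicate number and leaving out each library were alternatives. Those without the filter in combination, and without cells holding a UMI of Rag1, Rag2, Dntt or Arpp21 (the thymic markers), were chosen after seeing the data.

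Named are Trbv rows with at least 2% of Trbv UMIs, called rows, the row of smallest p where none was called and each library's leading row; the members, the gene lists and the tests were chosen with earlier results of these data known. On simulated counts with known changes, edgeR recovered 96.8% of 2-fold and 100% of 4-fold changes for CD8 minus CD4 cells (9747 genes), and 55.2% and 96% for p21mTert minus p21Het in CD8 cells (10980 genes). The changed genes were drawn from those that passed the low-count filter and were given the variation of the trend. Most or all Trbv rows did not pass it, so these rates do not describe the tests of Trbv rows. Binomial intervals are exact (Clopper-Pearson, 95%), and a count of 0 allows up to 3 counts of the total. Sequences and coordinates are from GENCODE M21 (GRCm38).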

Additional observations from a re-analysis of the deposited data

Results flagged for a closer look

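In CD8 cells of p21mTert, 3 values stood far from the other 4 libraries of the group. Trbv1 held 6.06% of Trbv UMIs in p21mTert_1, where the next value was 3.19% and the lowest 2.60%. That library had only 66 Trbv UMIs in CD8 cells, so its Trbv1 value rests on few UMIs. The flags took no account of counting error. Trbv12-1 held 12.6% in p21mTert_3, where the next value was 3.19% and the lowest 0%. Trbv UMIs per 100 CD8 cells were 10.2 in p21mTert_1, where the next value was 21.9 and the highest 25.2, and that library is of the earlier deposit. These came from 36 groups of 5 values looked at, of which chance would single out about 1 in 20. The step of Trbv16 from CD4 to CD8 cells differed between p21mTert and p21mTertCD by a log2 value of 5.00 in the edgeR interaction test without the low-count filter (11 rows were tested with it and none called), and without p21mTertCD_1 it was 3.43.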

How the results depend on the processing

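With the low-count filter no Trbv row was called in any of the 12 comparisons. For CD8 minus CD4 cells and the Foxp3 and Gzmk subsets the filter left none to test, so no call was possible there. Of 228 alternative fits that kept the filter, 4 called a Trbv row, and the 228 include fits of those comparisons. Without p21Het_1 1 was called between CD8 and CD4 cells. The others were fits without p21mTertCD_2, which leaves p21mTertCD with 1 library assumed to vary like the other groups. They were both CD4 comparisons with p21mTertCD, where the row was Trbv16, and the interaction of p21mTert with p21mTertCD. Trbv16 passed the filter in CD4 cells in no other fit. It entered there through p21mTertCD_1, the 1 library left in its group, which held 102 of its 117 UMIs. These calls therefore add no filtered evidence beyond that library. In these 4 fits 34.4%, 3.103%, 2.66% and 0.84% of all genes were called. Of 185 alternatives without the filter 59 made a call. Their shares of all genes called were 8.94% to 29.8% between CD8 and CD4 cells. In CD4 cells they were 0.175% to 2.60% for p21mTert minus p21mTertCD and 0.896% to 2.17% for p21mTertCD minus p21Het, in CD8 cells 2.02%, and in the interactions 0.251% to 2.34%. Between CD8 and CD4 cells 2 rows were called without the filter, 2 with DESeq2, 3 scaled to summed Trbv UMIs, 2 without doublets, 1 in cells with exactly 1 Trbv gene, 2 without thymic-marker cells, 1 in the later deposit alone, and 1 to 3 with a library left out. For p21mTert minus p21mTertCD in CD4 cells 1 was called without the filter, and also scaled to Trbv UMIs, without doublets, in cells with 1 Trbv gene, without thymic-marker cells, with a deposit term, in the later deposit alone and with the replicate block, and 0 to 1 with a library left out. For p21mTertCD minus p21Het in CD4 cells 1 was called without doublets, with a deposit term and in the later deposit alone, and 0 to 1 with a library left out. In CD8 cells 1 (Trbv16) was called for p21mTert minus p21mTertCD in cells with exactly 1 Trbv gene. In the interaction of p21mTert with p21mTertCD 1 was called without the filter, and also without doublets, in cells with 1 Trbv gene, without thymic-marker cells, in the later deposit alone, and 0 to 1 with a library left out. For p21mTertCD minus p21Het 0 to 1 was called with a library left out. The effective number stayed at 7.50 to 8.15 in CD4 and 10.4 to 10.6 in CD8 cells under other choices of cells. Leaving out p21mTertCD_2, with 10.2 in CD4 and 4.98 in CD8 cells, moved both means outside these ranges. None of the 12 named gene values with alternatives changed sign (the Foxp3 and Gzmk subsets had none). The cause of these changes was not tested. Libraries labelled with the same number (2 or 3, since a number 1 is in the label of p21mTertCD_1 alone) correlated at -0.272 to 0.164 in their deviations from the group means. Libraries of unlike number were not correlated, so these values cannot tell whether the numbers pair the libraries. The replicate block left Trbv16 in CD4 cells at -4.28 for p21mTert minus p21mTertCD (adjusted p = 0.035, edgeR without the filter) and changed no count. Depth limits all shares, since a library gave as few as 20 Trbv UMIs in CD4 cells.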
